A study of Populus tremula x Populus alba with 64 samples.

Results

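The 150 transcripts described here were selected on their counts as the most root-weighted ones in one control group of poplar cuttings (hybrid Populus tremula × alba, clone INRA 717-1B4). For each of the 61987 rows of the count tables, counts were scaled to a library total of 1000000 (CPM), and a score was formed as the lowest CPM of control-AI 11-day roots 1 to 4 plus 0.5, over the highest CPM of control-AI 11-day stems 1 to 3 plus 0.5. The 150 rows with the highest scores were kept. They belong to 149 genes, because gene 7486631 has 2 rows, and 147 of them carry a protein-coding transcript identifier. Their scores ran from 90.3 to 15.7, with a median of 24.6. These 7 libraries chose the transcripts, so their values are given as a description only, and every test below used other libraries.

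The study grew leafy cuttings and sprayed their leaves with an auxin mixture (AE), an auxin transport inhibitor (AI) or a control solution. AE was a mixture of 3 µM NAA and 4.5 µM IBA, and AI was 100 µM NPA, an inhibitor of polar auxin transport. Both were prepared in 1 N KOH, and that solution alone served as the control of each (control-AE, labelled C-enh, and control-AI, labelled C-Inh). All groups thus received 1 N KOH. Roots and stems were sampled at 24 h and at 11 days, which gave 16 groups and 64 libraries of the same clone, so that every group shares 1 genotype. A library held a whole root or stem powder, so fewer cells of a type and less RNA per cell cannot be told apart. The study calls its samples biological replicates, but neither the labels nor the methods tie each library to a plant of its own, and p-values then measure only the spread between these samples.

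Roots take up water and ions and pass them to the xylem. Water crosses root cell membranes through aquaporins, of which the PIP type sits in the plasma membrane and the TIP type in the vacuole membrane, and metals enter through carriers such as the Nramp family. Auxin made in the shoot moves down into the root, where its level also depends on the release of stored amino acid conjugates.

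Only libraries of at least 1000000 counts entered the tests, which left 50 of 64. They held 3075654 to 21062883 counts, and the 14 shallow ones 90306 to 370828. The depth label of control-AE 11-day root 2 (low) and that of root 3 (acceptable) were the reverse of their depths of 7775884 and 105758 counts. Photosynthesis transcripts, used as a check of the tissue labels (14 rows), summed to 15.2 to 193 CPM in the 28 deep root libraries and to 1363 to 3671 CPM in the 22 deep stem libraries. Lists of shoot identity and wood markers, set for the same check, did not separate the tissues. The shoot list (2 rows) summed to 25.5 to 47.4 CPM in deep roots and 21.3 to 46.1 in deep stems. The wood list (13 rows) summed to 662 to 2242 CPM in deep roots and 513 to 737 in deep stems. In the 4 shallow root libraries the photosynthesis transcripts summed to 2572 to 12542 CPM, within or above the range of the stems. The 150 transcripts took 0.319 to 1.09% of the counts of the same 4 libraries, above every deep stem library and, in 3 of the 4, below every deep root library. Rows of the ribosomal RNA family RF02543, dropped before scoring, took 9.13 to 33.3% of the counts of the shallow root libraries and 0.0461 to 0.246% of those of the deep ones. They took at most 0.503% in the deep stem libraries other than AE 11-day stem 5 (22.1%), control-AE 11-day stem 1 (7.59%) and control-AI 11-day stem 2 (11.4%), of which the last was among the libraries that chose the transcripts. The tests below include the other 2.

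As a group, the 150 transcripts took 0.867 to 2.21% of all counts in the deep root libraries (median 1.73%) and 0.0161 to 0.0462% in the deep stem libraries (median 0.0283%). No deep root library came near a deep stem library. Among roots, the share was lowest in the groups sampled at 11 days under AE (1.19% ± 0.221, SD, n = 6) and control-AE (1.08% ± 0.302, n = 3). It was 1.87% ± 0.125 (n = 3) and 1.69% ± 0.186 (n = 3) in the same arms at 24 h. In the AI arm it was 1.97% ± 0.306 (n = 2) at 24 h and 1.66% ± 0.154 (n = 4) at 11 days, and in control-AI roots 1.88% ± 0.177 (n = 3) and 1.95% ± 0.204 (n = 4), the last being the group that chose the transcripts.

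**Figure D1:**
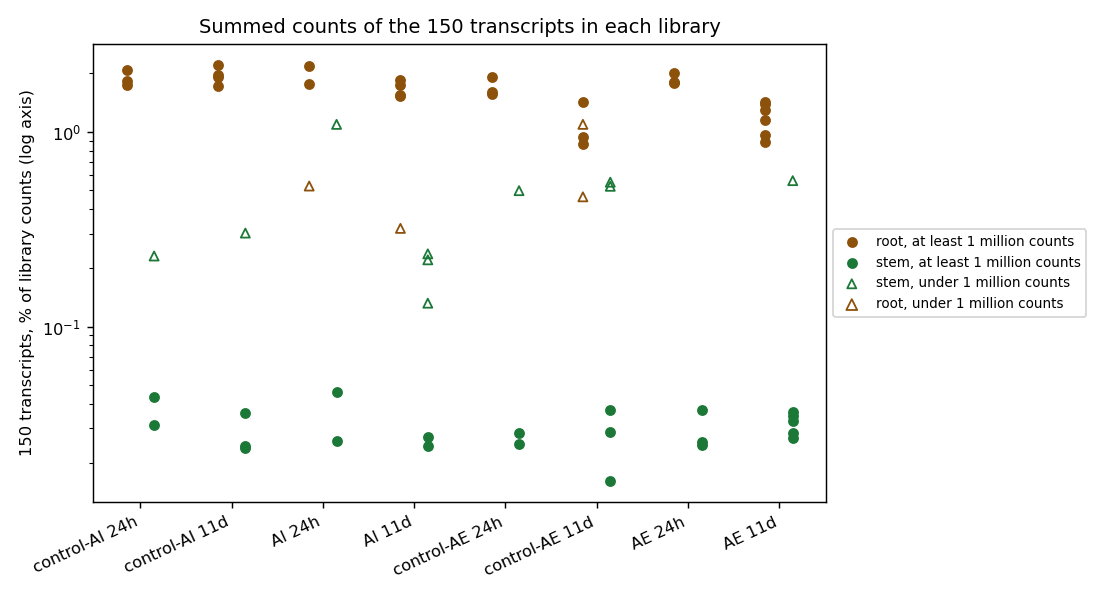
Share of all counts taken by the 150 transcripts, in percent on a log axis, with 1 point per library and the groups along the horizontal axis. Deep root libraries sit between 0.867 and 2.21% and deep stem libraries between 0.0161 and 0.0462%, while the 14 shallow libraries lie from 0.132 to 1.09%.

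Product names were at hand for only 12 of the 150. They come from a table of the study that is ordered by its own test of AE against control-AE in 11-day roots, so which transcripts carry a name is not independent of that comparison. The other 138 are given by their gene identifier, with no role assigned. Among the named ones were a pair of water channels, the TIP-type aquaporin 18094614 (score rank 2) and PIP2-4 (7491133, rank 28). A second pair, 7491394 and 18110648, were annotated as benzyl alcohol O-benzoyltransferase, which joins a benzoyl group to benzyl alcohol. The others were COBRA-like protein 4 (18105768), whose Arabidopsis relative acts in cellulose deposition in secondary walls, the metal transporter Nramp5 (18096211), which takes up manganese in rice, and a wall-associated receptor kinase-like protein (18098024). IAA-amino acid hydrolase ILR1 (7492233) frees auxin from its amino acid conjugates in Arabidopsis, and cytochrome P450 734A1 (7483782) inactivates brassinosteroids there. The remaining ones were the RING-H2 finger protein ATL12 (7471530), of a family of ubiquitin ligases, and the transcription factors BBM2 (7464602), of the AP2 family, and myb-related protein 315 (7456205).

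The transcripts spanned a wide range of levels. Their mean in control-AI 11-day roots ran from 11.0 to 1478 CPM, with a median of 55.1. A single transcript, 7486630, took 7.58% of the counts of the 150 in these roots, and the 10 most abundant took 37.8%. After 7486630, the order by mean CPM was 7491133 (PIP2-4, 805), 7496002 (761), 7494330 (737), 18094614 (TIP-type aquaporin, 710), 18099865 (659), 18105022 (642), 7482250 (551), 7485726 (539) and 7485540 (498). Divided by transcript length, 7486630 remained first at 1265 CPM per kb, followed by 7494330 (948), the TIP-type aquaporin (768) and PIP2-4 (666). The IAA-amino acid hydrolase ILR1 stood far below, at 21.2 CPM per kb.

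The 10 highest scores belonged to 18095639, the TIP-type aquaporin 18094614, 18098035, 18099865, 18099863, 7489599, 7492125, 7457632, 7480442 and 7489600. Transcript 18095639 (NC_037285.1, 42813992 to 42814965, 2 exons) had 94.8, 67.7, 77.2 and 79.4 CPM in control-AI 11-day roots 1 to 4 and 0.226, 0 and 0.255 CPM in stems 1 to 3. The TIP-type aquaporin (NC_037285.1, 13015204 to 13016591, minus strand, 3 exons) had 801, 711, 750 and 576 CPM in the same roots and 6.00, 4.33 and 3.63 in the stems. At the other end, the last transcripts kept were 7493991 (score 15.87, lowest root value 9.23 CPM), 7490975 (15.87) and 7484399 (15.74), and the first left out were 7486626 (15.65, lowest root value 7.32 CPM and 0 in all 3 stems), 7464856 (15.63) and 7458612 (15.59). Values on either side of that limit therefore differed by less than 1 in score.

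Many of the 149 genes lay close together in the genome, a feature the score did not use. With at most 2 gene models between neighbours, 27 of them formed 11 runs, of which 7 held 2 genes, 3 held 3 and 1 held 4, and in 10 of the 11 runs all genes lay on 1 strand. There were 16 such neighbouring pairs, against 5 among the 149 genes that came next in score. The run of 4 lay on NC_037285.1 and joined 7486629 (14988297 to 14989791), the most abundant transcript 7486630 (14992433 to 14993889), 7486631 (15006295 to 15009938) and 7490975 (15052287 to 15053874), with no other gene model between them. Transcript 7486626, the first left out of the 150, lay on the same sequence at 14938904 to 14940417. Both benzyl alcohol O-benzoyltransferase genes fell in a run of 3 with 7491398, and 7491399, a gene model between 7491394 and 7491398, ranked 357 with a mean of 6.14 CPM in roots and a highest stem value of 0.0637 CPM. On NC_037290.1, 18099862, 18099863 and 18099865 followed each other between 4225235 and 4243584.

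Close neighbours were not always alike in level. Within the run on NC_037290.1, means in control-AI 11-day roots were 336, 194 and 659 CPM, and in the run of 4 they were 154, 1478, 34.7 and 85.1 CPM. Gene models lying between run members included some with no root weighting, such as 7457631, between 7457630 and 7457632 on NC_037299.1, with a mean of 10.5 CPM in roots and a highest stem value of 13.8 CPM. Reads of near-identical neighbouring copies may have been split between rows by the counting, and that was not tested. The transcripts had a median of 3 exons and 1602.5 bases, and 18.7% had a single exon, whereas the 11619 rows at or above the lowest of their root means (11.0 CPM) had a median of 5 exons and 1681 bases, and 13.03% had a single exon.

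The first question was whether the root weighting held in libraries that had not chosen the transcripts. It did, in each of 7 tests of root against stem (edgeR, quasi-likelihood F, Benjamini-Hochberg over all rows tested), with an adjusted p under 0.05 as the call. In control-AE 11-day samples 147 of 147 transcripts tested were higher in root and none lower, where 15.4% of all rows were called higher and 14.6% lower. The counts were 147 of 147 in AE at 11 days (all rows: 25.3% higher, 24.7% lower) and 150 of 150 in AI at 11 days (23.6% and 22.5%). At 24 h they were 150 of 150 in control-AE (19.0% and 20.2%), control-AI (23.7% and 23.8%), AE (21.2% and 21.6%) and AI (22.0% and 20.9%). Of the 150, 146 were tested and higher in all 7 comparisons, and the highest adjusted p among all these tests was 0.0337. With stem levels as low as these, a transcript passed the filter on low counts through its roots, so the counts over those tested are a description. Without the filter all 150 were tested, and 150 were higher in root in each of the 7 comparisons.

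The median log2 difference between root and stem was 5.75 in control-AE and 5.69 in AE at 11 days, 7.18 in AI at 11 days, and 6.32 to 6.55 in the 24 h comparisons. In the same tests the median over all rows lay between -0.03 and 0.02. Transcripts whose stem libraries were all at 0 entered these medians with fitted values, and with such transcripts at the bound that 3 counts over the stem group allow, the median was 7.03 in AI at 11 days, 6.52 in control-AE and 6.42 in control-AI at 24 h. For 147 of the 150, the smallest difference in any test was above 3 on the log2 scale.

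**Figure D2:**
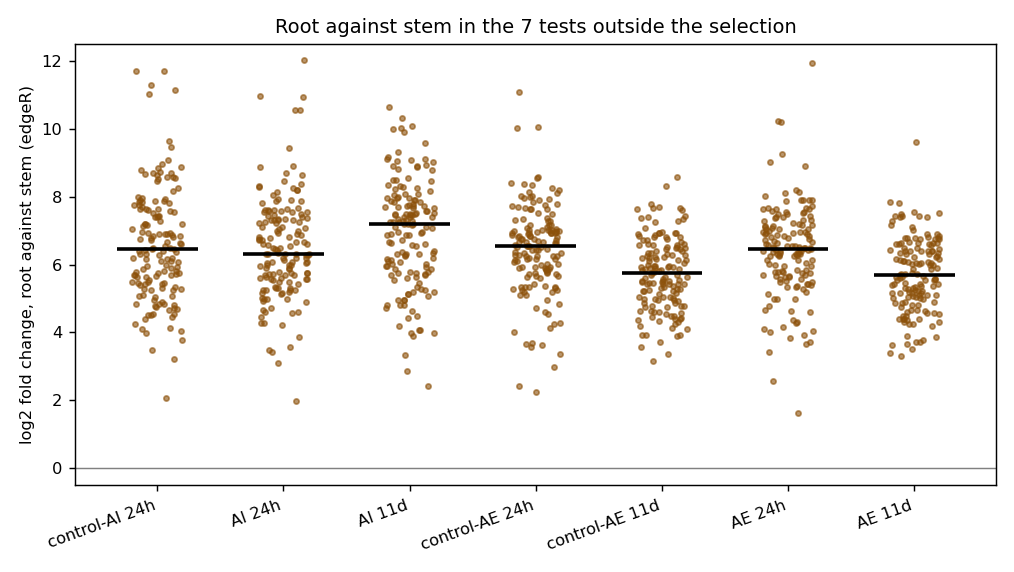
Log2 fold change of each of the 150 transcripts, root against stem, in the 7 comparisons that did not choose them, with 1 point per transcript and a bar at the median. All points lie above 0, the lowest at 1.61, and the highest, 12.04, is a fitted value for 7492240 in AI at 24 h, where both stems were at 0 and the bound is at least 8.13. The medians lie between 5.69 and 7.18.

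The most abundant transcript shows the size of the contrast. Transcript 7486630 had 716, 1199 and 1397 CPM in AE 24 h roots and 4.96, 7.62 and 5.50 CPM in AE 24 h stems. In control-AE at 11 days it had 924, 1044 and 863 CPM in roots and 15.1, 3.40 and 7.57 CPM in stems. Every root library was above every stem library by a wide margin, with a log2 difference of 7.65 ± 0.336 (SE, edgeR adjusted p = 1.57e-05) in AE at 24 h and 6.82 ± 0.575 (0.000213) in control-AE at 11 days. PIP2-4 (7491133) had 1438, 765 and 769 CPM in AE 24 h roots against 4.96, 4.29 and 7.30 CPM in stems, a log2 difference of 7.65 ± 0.435 (edgeR adjusted p = 2.39e-05). It did not overlap between tissues in that or any other group.

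The IAA-amino acid hydrolase ILR1 was the most even of the 150 across roots. Over the 24 deep root libraries that did not choose the transcripts, it ran from 20.6 to 39.4 CPM (median 29.8), an SD of 0.229 on the log2 scale. Its highest value in the 19 deep stem libraries outside the choosing group was 1.61 CPM, and its log2 difference between tissues was 4.61 to 6.04 over the 7 tests. Nramp5 (31.7 to 102 CPM in roots, at most 1.47 in stems) and COBRA-like protein 4 (15.8 to 138 CPM in roots, at most 0.926 in stems) did not overlap between tissues either. BBM2 ran from 25.4 to 96.1 CPM in roots, with its peak in control-AE 11-day root 5, and reached 5.88 CPM in 1 stem library. Its smallest log2 difference, 3.58 ± 0.473 (edgeR adjusted p = 0.00158), was in AI at 24 h.

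Over all groups outside the choice, 141 of 150 transcripts had every one of 24 deep root libraries above every one of 19 deep stem libraries, as did 6.86% of all 22813 rows with a mean of at least 1 CPM in these libraries. The 9 exceptions were 18098035, 7480442, 7478636, 7491285, 18094923, 7481610, 7458964, 18097015 and 7493991, each with its lowest root value in control-AE 11-day root 2 or AE 11-day root 2. The 4 transcripts 7491285, 18094923, 7481610 and 7481329, 3 of them among these 9, were too low in 11-day samples to be tested in 1 or both of the AE and control-AE comparisons. Leaving out each library in turn gave 140 to 150 transcripts higher in root in control-AE at 11 days, with 145 of 150 without stem 1, and 147 to 150 in the other tests. Adding the shallow libraries, whose root samples carry the stem-level photosynthesis transcripts given above, gave 60 of 137 in AI at 24 h and 125 of 141 in control-AE at 11 days.

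Stem levels of the 150 were low but seldom nil. Over the 19 deep stem libraries, 91 transcripts had a mean under 1 CPM, the median of the means was 0.749 CPM, and none was at 0 in every library. The 5 with a mean above 10 CPM were 7491786 (28.5), 18105022 (21.3), 7454973 (17.9), 7496002 (13.9) and 7494330 (10.9). Transcript 7491786 was steady in stems, at 20.6 to 37.9 CPM, while 18105022 ran from 6.15 to 38.4 CPM.

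Transcript 7491288 had the smallest contrast between tissues and the one that varied most plainly with the stem group. In stems it had 17.5 and 20.4 CPM in control-AI at 24 h, 16.4 and 17.3 in AI at 24 h, 17.5, 14.2 and 16.9 in AE at 24 h, and 4.25 and 18.4 in control-AE at 24 h. In AI 11-day stems it had 9.83 and 12.4 CPM. In the 11-day stems of AE (0.487 to 3.19 CPM, median 1.95) and control-AE (2.83, 2.19 and 0.733) it was lower, as in the control-AI 11-day stems that chose it (1.58, 0.206 and 2.10). All 24 h stem libraries were thus above all 11-day stem libraries outside AI. Its root values ran from 22.0 to 81.5 CPM, and its log2 difference between root and stem was 1.61 ± 0.184 (edgeR adjusted p = 0.000349) in AE at 24 h and 4.24 ± 0.406 (1.93e-06) in AE at 11 days. No test of time in stems was run, and the choice of transcripts fixed its low value in one of these groups.

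One stem library, AE 24 h stem 1, stood apart for a small set. Transcript 7480442 had 16.5 CPM there and 0.476 and 1.44 CPM in stems 2 and 3. The same held for 7460971 (16.1 against 0.476 and 0.479), 7460972 (11.8 against 0.476 and 0.359), 18098035 (10.5 against 0.119 and 0.598) and 7496989 (14.9 against 3.33 and 1.08). The same 5 had the largest falls over time in AE roots. The 150 together took 0.0374% of the counts of this library, against 0.0255% and 0.0246% in stems 2 and 3, and deep stems of other groups reached 0.0462%. Among the deep stem libraries outside the choice, AE 24 h stem 1 held the highest value of 13 transcripts, these 5 included. AI 24 h stem 3 held that of 26 and control-AE 11-day stem 1 that of 25.

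The study's main contrast was spray against control. With DESeq2, the study itself reported genes called in both directions in 11-day AE roots and none in AI roots. No transcript of the 150 was called in any of 6 such tests by edgeR. In 11-day roots under AE, 0 of 150 were called, where 0.00396% of all rows were called higher and 0.0% lower, and 5 transcripts (3.33%) had an unadjusted p under 0.05, 4 higher and 1 lower, beside 6.55% of all rows. In 24 h roots, 0 of 150 were called under AE (all rows: 0.0% in each direction) and 7 (4.67%, all rows 3.66%) had an unadjusted p under 0.05, while under AI 0 of 150 were called (0.0%) and 13 did (8.67%, all rows 7.0%). In stems the filter on low counts left 71 transcripts for AE at 11 days, 58 for AE at 24 h and 59 for AI at 24 h. None was called (all rows: 0.0%), with 2, 1 and 0 at an unadjusted p under 0.05 (all rows: 3.67%, 3.56% and 1.55%). DESeq2 called 0 of the 150 in all 6. Shares of all rows called by DESeq2 are not given, here or below, so its counts are a description only. Leaving out control-AI 24 h stem 3 gave 3 calls in AI stems at 24 h, and no other omission gave any in these 6 tests.

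Fitted differences were small. In 11-day roots, AE against control-AE had a median log2 difference of 0.20 over the 150 (range -0.74 to 0.85, median SE 0.347), and all 150 lay within 1 of 0. Among all rows the median was 0.00. In 24 h roots the median was 0.03 for AE (142 of 150 within 1) and 0.08 for AI (148 of 150 within 1, median SE 0.201). PIP2-4 had 321 to 485 CPM (median 388) in AE 11-day roots and 456, 483 and 589 CPM in control-AE 11-day roots, which overlapped, with a log2 difference of -0.42 ± 0.142 (edgeR adjusted p = 0.709). ILR1 had 27.8 to 39.4 CPM (median 31.9) in AE and 26.0, 27.3 and 25.1 CPM in control-AE, so that every AE library was above every control library, by 0.30 ± 0.118 on the log2 scale (edgeR adjusted p = 0.742). ILR1 was the only 1 of the 150 separated in this way, beside 1.87% of all 22135 rows over 1 CPM. The reverse held for 0 of the 150 and 0.809% of these rows. PIP2-4 and ILR1 both carry a product name because the naming table is ordered by this same contrast.

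The 5 transcripts that stood apart in AE 24 h stem 1 had fitted differences of 1.14 to 1.52 on the log2 scale between AE and control-AE in 24 h roots. Transcript 7480442 had 906, 924 and 451 CPM in AE and 177, 84.9 and 565 CPM in control-AE, which overlapped. Transcript 7460972 had 374, 486 and 261 CPM in AE and 101, 65.4 and 225 CPM in control-AE, which did not, with a log2 difference of 1.52 ± 0.455 and an edgeR adjusted p of 1.00. Its neighbour 7460971 differed by 1.48 ± 0.436 and 18098035 by 1.41 ± 0.365, with the same adjusted p. None of these passed the adjustment. Of the 150, 5 had every AE 24 h root library above every control-AE one (all rows over 1 CPM: 3.69%). The reverse held for 2 (all rows over 1 CPM: 4.06%).

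For AI against control-AI in 11-day roots no test was possible, since the control libraries chose the transcripts. AI means were lower for 138 of 150, with a median ratio of 0.856 (0.538 to 1.34). The rule kept transcripts that were high in every one of those control libraries, so that direction is not independent of the choice.

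Time gave the changes that did pass the test, all of them lower at 11 days than at 24 h. In AE roots 33 of 150 transcripts, or 22.0%, were lower at 11 days and none was higher, where 7.55% of all rows were lower and 7.46% higher (edgeR, 6 libraries against 3). In control-AE roots 5 of 150 were lower and none higher (all rows: 0.6% lower, 1.52% higher), with 29 (19.3%, all rows 18.1%) at an unadjusted p under 0.05, all lower. In AI roots 0 of 150 were called (all rows: 0.0% in each direction), with 36 lower and 1 higher before adjustment (p under 0.05, 24.7% of the 150 and 6.46% of all rows), and 0 called by DESeq2. The median log2 difference over the 150 was -0.28 in AE, -0.50 in control-AE and -0.22 in AI, with 114, 138 and 123 of 150 below 0, and over all rows it was -0.01, 0.01 and 0.00. The difference of the AE effect between the times (the interaction) was called for 0 of 150, with 1 at an unadjusted p under 0.05 (all rows: 3.06%) and 0 by DESeq2 (all rows called by edgeR: 0.0%), so a time course particular to AE was not shown.

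AE and control-AE share no libraries. Of the 33 transcripts lower in AE, 4 were among the 5 lower in control-AE (12.1% of the one and 80% of the other). All 33 had a negative fitted difference in control-AE, as did 138 of all 150, and 31 had one in AI, as did 123 of all 150. Of the 33, which were picked as called lower, 7483989 and 7461597 overlapped between the times in AE roots. Of all 150, 33 had every AE 11-day root below every AE 24 h root, 31 of them among those called, and 0 the reverse. Among all 22008 rows over 1 CPM the shares were 6.70% and 13.7%. Libraries differed in depth between the times, with 14687877 to 19154573 counts in AE 11-day roots and 10072625 to 11016895 in AE 24 h roots, and the part of depth in this result was not tested. The count in AE kept between 28 and 36 with each library left out. The count in control-AE did not hold in this way: it was 1 without 11-day root 2, 15 without 11-day root 4 or root 5, and 0 without any one of the 24 h roots.

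**Figure D3:**
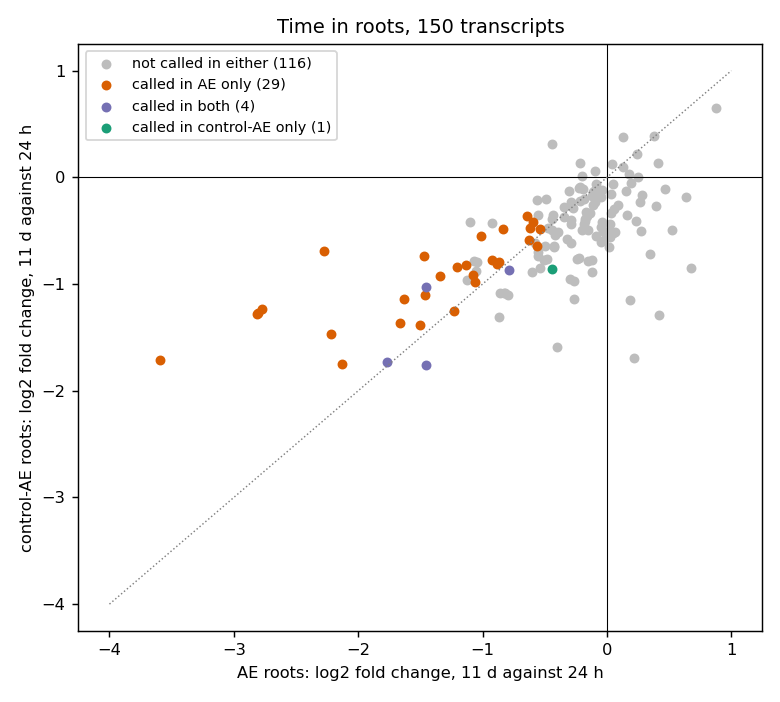
Log2 fold change from 24 h to 11 days in AE roots (horizontal) and control-AE roots (vertical), 1 point per transcript, colored by the call at an adjusted p under 0.05, with a dotted line of equal change. The 29 transcripts called in AE only, 4 in both and 1 in control-AE only all lie below 0 on both axes, and 116 were called in neither.

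Both water channels fell with time in AE roots. The TIP-type aquaporin had 1786, 873 and 866 CPM in AE 24 h roots and 167 to 375 CPM (median 292) in AE 11-day roots. The groups did not overlap, and the transcript fell by 2.22 ± 0.330 on the log2 scale (edgeR adjusted p = 0.00403). In control-AE roots it had 1405, 944 and 1210 CPM at 24 h and 220, 479 and 598 CPM at 11 days, again without overlap, with a log2 difference of -1.47 ± 0.368 that did not pass (edgeR adjusted p = 0.0933). In AI roots it had 611 and 1118 CPM at 24 h and 570, 383, 795 and 440 CPM at 11 days, which overlapped (-0.72 ± 0.323, edgeR adjusted p = 0.737). PIP2-4 had 1438, 765 and 769 CPM at 24 h and 321 to 485 CPM (median 388) at 11 days in AE roots, a fall of 1.45 ± 0.222 (edgeR adjusted p = 0.00447). In control-AE roots it went from 1054, 1121 and 921 CPM to 456, 483 and 589 CPM, with a log2 difference of -1.03 ± 0.154 (edgeR adjusted p = 0.0296). In AI roots its values were 794 and 1065 CPM at 24 h and 716, 544, 794 and 620 CPM at 11 days, and its log2 difference was -0.54 ± 0.182 (edgeR adjusted p = 0.737).

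Water channels outside the 150 moved in the same comparisons. Of 11 rows named as aquaporins in the study's table, the pair above among them, 6 were lower and none higher at 11 days in AE roots (all rows: 7.55% lower, 7.46% higher). In control-AE roots 4 were lower and 1 higher (all rows: 0.6% lower, 1.52% higher). That table is ordered by a test between the 11-day roots of both arms, and these roots also enter the time tests. Which rows are named is thus not independent of these counts, and the shares over all rows are no fair contrast for them. The median log2 difference of the 11 was -1.29 in AE and -0.69 in control-AE. Beside the pair above, the falling ones in AE were PIP2-2 (18100192, -1.81 ± 0.253, edgeR adjusted p = 0.00345), PIP2-3 (7486477, -2.42 ± 0.395, 0.00585) and both rows named PIP1-2 (7490340, -1.86 ± 0.216, 0.00201, and 7488009, -1.29 ± 0.231, 0.00773). PIP2-8 (7494236), called lower in root than stem in 6 of the 7 tissue tests, was the one that rose in control-AE roots (1.17 ± 0.207, edgeR adjusted p = 0.0429). Between tissues the aquaporins were mixed, with 4 to 6 of the 11 higher in root and 2 to 5 lower across the 7 tests (all rows: 15.4 to 25.3% higher, 14.6 to 24.7% lower). PIP2-2 and one PIP1-2 (7490340) ranked 174 and 227 by score, just outside the 150.

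Other named lists with a member among the 150 were counted in the same way over time in AE roots, where 7.46% of all rows were higher and 7.55% lower. Of 33 nutrient and ion transport rows tested, 2 were higher and 5 lower, and of 111 transcription factor rows 4 were higher and 26 lower. Of 19 auxin-related rows 2 were higher and none lower, with no call for ILR1, the member of that list. Of 148 receptor kinase and signalling rows 11 were higher and 24 lower, and of 33 rows for other hormones 3 were higher and 11 lower. Of 13 cytochrome P450 rows 2 were higher and 3 lower. All these lists hold only rows named in the study's table, so the limit given for the water channels applies to them too.

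**Figure D4:**
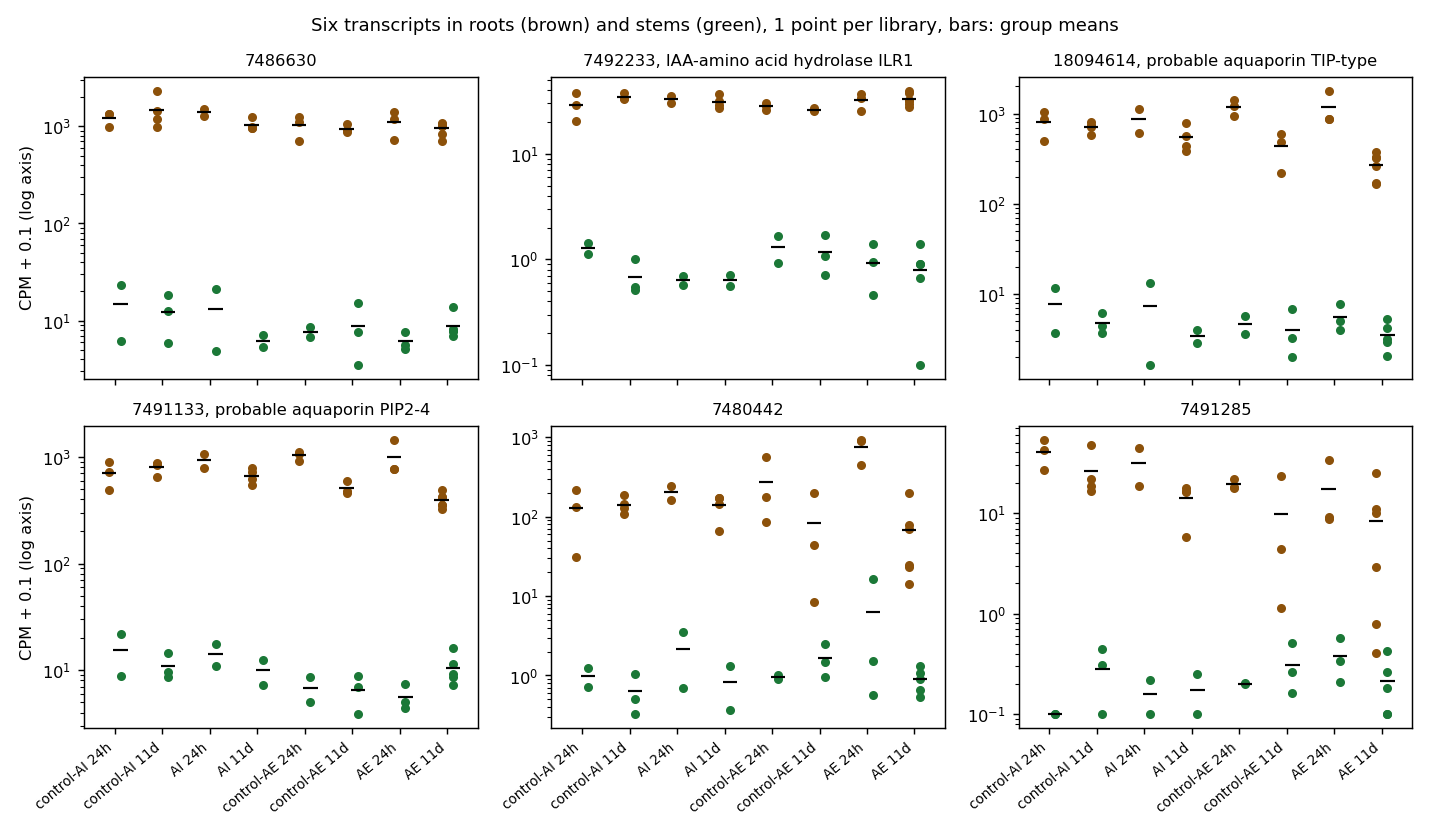
CPM plus 0.1 on a log axis for 6 transcripts in roots (brown) and stems (green) of the 8 arms and times, with 1 point per library and bars at group means. ILR1 stays between 20.6 and 39.4 CPM in the root groups that did not choose the transcripts. Among root groups, the water channels have their lowest means in AE 11-day roots, and 7480442 and 7491285 spread widely in 11-day AE and control-AE roots.

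The largest falls in AE roots were those of 7480442, 7496989, 7460972, 7460971 and 18098035. Transcript 7480442 (NC_037289.1, 7427987 to 7430226) had 906, 924 and 451 CPM at 24 h and 14.3 to 197 CPM (median 47.2) at 11 days. The groups did not overlap, and it fell by 3.59 ± 0.699 on the log2 scale (edgeR adjusted p = 0.0103). The other 4 fell by 2.27 to 2.82 on that scale. In control-AE roots 7480442 had 177, 84.9 and 565 CPM at 24 h and 8.23, 201 and 43.9 CPM at 11 days, which overlapped. In AI roots it had 162 and 244 CPM at 24 h and 145, 173, 66.3 and 173 CPM at 11 days, and in control-AI 24 h roots 133, 30.9 and 217 CPM.

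Several further falls in AE roots were clean. Transcript 7457411 had 220, 116 and 113 CPM at 24 h and 39.9 to 52.7 CPM (median 48.3) at 11 days, a fall of 1.77 ± 0.212 (edgeR adjusted p = 0.00226). It was also called in control-AE roots, where it had 174, 163 and 144 CPM at 24 h and 43.6, 60.5 and 41.6 CPM at 11 days (-1.73 ± 0.183, edgeR adjusted p = 0.0108). Transcript 112326079 went from 41.4, 48.7 and 41.8 CPM to 9.54 to 21.4 CPM (median 17.2) in AE and from 46.7, 47.4 and 43.9 to 9.0, 19.4 and 12.3 CPM in control-AE. Transcripts 7482162 and 112324112 completed the 5 called in control-AE, with log2 differences of -0.87 ± 0.136 (edgeR adjusted p = 0.0312) and -0.86 ± 0.160 (0.0495). The second of these was the only one of the 5 not called in AE roots. Over the 33 called in AE, the median was -1.23 and the smallest fall was 0.54.

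The most abundant transcript did not take part. In AE roots 7486630 had 716, 1199 and 1397 CPM at 24 h and 705 to 1082 CPM (median 1001) at 11 days, and in control-AE roots 1255, 1114 and 700.0 CPM and 924, 1044 and 863 CPM. The groups overlapped in both arms. The highest-scoring transcript, 18095639, also overlapped in AE roots, at 37.5, 48.5 and 40.3 CPM against 25.8 to 65.8 CPM (median 44.2).

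Across roots, most of the 150 varied moderately. Over the 24 deep root libraries outside the choice, the SD of log2 CPM ran from 0.229 to 1.76 (median 0.608), and the highest group mean was 1.27 to 11.2 times the lowest (median 2.21). The lowest group mean was in control-AE 11-day roots for 105 of 150 and in AE 11-day roots for 24. The highest was in control-AI 24 h roots for 50, in the choosing group for 44, in AE 24 h roots for 27 and in AI 24 h roots for 16. The rule kept transcripts high in every library of the choosing group, so these counts of group means are not independent of the choice. No share over all rows was taken for them. By single library, the lowest value fell in control-AE 11-day root 2 for 44 transcripts, in control-AE 11-day root 5 for 31 and in AE 11-day root 2 for 29.

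A pair of small sets moved together from library to library. The 5 transcripts with the largest falls in AE roots had pairwise Pearson correlations of 0.927 to 0.997 (log2 CPM, 10 pairs, 24 libraries). The 4 transcripts too low for some tissue tests, 7491285, 18094923, 7481610 and 7481329, had 0.960 to 0.989 among themselves (6 pairs). Between the sets the values were 0.190 to 0.425 (20 pairs), and over all 11175 pairs of the 150 the median was 0.483. The points share libraries, their depth and their groups, so these are descriptions. Of the first set, 7460971 and 7460972 lay next to each other on the same strand of NC_037289.1.

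The second set ranged widely in 11-day roots. Transcript 7491285 had 9.89, 0.306, 2.83, 0.681, 10.8 and 24.6 CPM in AE 11-day roots 1 to 6 and 1.03, 23.4 and 4.27 CPM in control-AE 11-day roots. In control-AI 24 h roots it had 53.0, 26.7 and 42.3 CPM. The AE and control-AE values overlapped, and replicates of each group were far apart. In stems it reached at most 0.476 CPM in the 19 deep libraries outside the choice.

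**Figure D5:**
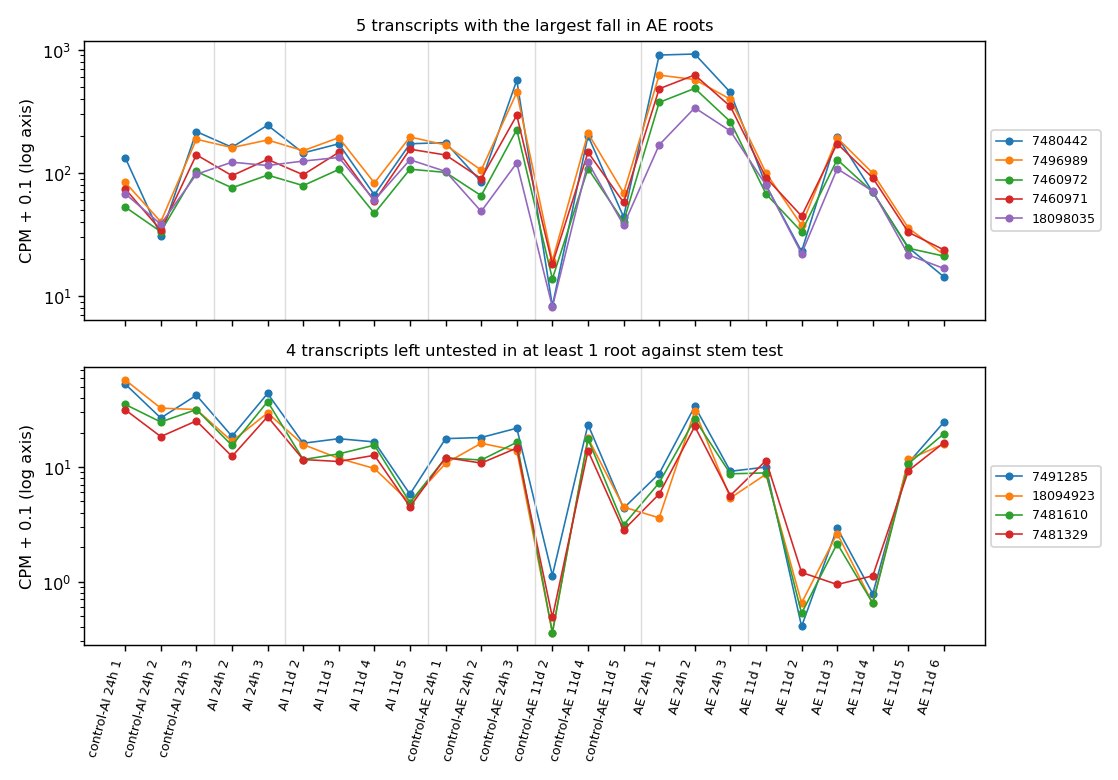
CPM plus 0.1 on a log axis in the 24 deep root libraries that did not choose the transcripts, for the 5 transcripts with the largest fall in AE roots (top) and the 4 left untested in at least 1 root against stem test (bottom), 1 line per transcript. Lines within a panel run nearly together (correlations of 0.927 to 0.997 and 0.960 to 0.989), and both sets are at or near their lowest in control-AE 11-day root 2. Each set was picked by its values in some of these libraries, which favors such correlations.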

How the data were processed

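RNA-seq of roots and stems was deposited by the authors as raw counts of reads for each transcript or gene model in 64 libraries. Per the study's methods and the tools in the labels, polyadenylated RNA was sequenced in pairs on an Illumina HiSeq, checked with FastQC, aligned with STAR to a Populus trichocarpa genome and counted with featureCounts of Subread; tool versions are not given in the sources used here. The methods name a genome release from Phytozome, whereas sequence names and transcript identifiers in the files are those of RefSeq, so the build of the printed coordinates is not settled. No reference genome was used here. The 20 rows of RF02543 were dropped from 62007. CPM were computed from library totals. Tests used glmQLFit and glmQLFTest of edgeR 4.0.16 in R 4.3.3, with TMM factors and filterByExpr (counts of at least 10, totals of at least 15), over libraries of at least 1000000 counts, with Benjamini-Hochberg adjustment at 0.05 over all rows tested. Standard errors are the absolute log2 fold change over the square root of F. Floors are 3 counts and cover counting error only. The AE 24 h root library with no number in its label is called replicate 3. Alternatives were DESeq2 1.42.0, RLE factors, no filter, libraries labelled acceptable, all libraries, counts summed per gene, 1 fit over 16 groups, the replicate number as a block, each library left out, and other forms of the score. The transcripts and gene lists were chosen with earlier results of these data known. Named transcripts were the 10 highest scores, the 10 highest means, those not called in a tissue test, up to 5 called per comparison and direction, list members, and the 3 on either side of the score limit; others were named after their values were seen. The scripts were tested on simulated data. All 106 replicate pairs differed, by a chi-square of at least 1.62 per degree of freedom. Product names came from the study's table for 2450 rows and 12 of the 150. Other steps ran in Python 3.11.15 (pandas 2.3.3, scipy 1.17.1) and figures in matplotlib 3.10.9.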

Additional observations from a re-analysis of the deposited data

Results flagged for a closer look

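In 80 sets of 4 to 6 libraries, one set for each transcript followed library by library and each group, 12 held a value far from the others by Dixon's criterion, which chance gives in about 1 of 20 groups. In AE 11-day roots, 7480442 was at 197.3 CPM in 1 library. In AE 11-day stems, single libraries were high for 18098035 (1.95 CPM), 7481610 (0.325 CPM) and 7486630 (13.7 CPM). In AI 11-day roots, 18098035 was low at 60.1 CPM, 7491285 low at 5.69 CPM and 7486630 high at 1242 CPM. In control-AI 11-day roots, which chose the transcripts, 7491285 (47.4 CPM), 7481610 (37.8 CPM), 7481329 (28.0 CPM) and ILR1 (7492233, 37.8 CPM) were high in root 1, and PIP2-4 (7491133) was low at 649 CPM in root 4.

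The 10 stem libraries too shallow for the tests carried more of the 150 than any deep stem library (0.0462% at most). The 150 took 0.525% of the counts of control-AE 11-day stem 3, 0.551% of stem 5, 0.499% of control-AE 24 h stem 1, 0.302% of control-AI 11-day stem 4 and 0.230% of control-AI 24 h stem 2. They took 0.562% in AE 11-day stem 2, 0.132%, 0.236% and 0.220% in AI 11-day stems 1, 2 and 4, and 1.09% in AI 24 h stem 2. Photosynthesis transcripts summed to 1514 to 4695 CPM in these libraries. A cause was not tested.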

How the results depend on the processing

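With each library left out in turn, the number of the 150 called lower at 11 days in control-AE roots ran from 0 to 15, and the number called in AI stems at 24 h from 0 to 3. The control-AE time count of 5 became 8 with no filter, 18 with DESeq2, 3 with the libraries labelled acceptable and 14 in 1 fit over 16 groups. Shares of all rows called under these alternatives are not given, so these counts are a description only. With all libraries, the count higher in root in AI at 24 h was 60 of 137 tested, in place of 150. Scoring by control-AE 11-day roots and stems kept 79 of the 150. With the replicate number as a block, the 33 called lower at 11 days in AE roots became 0, in a fit of only the 4 libraries whose numbers both times share. Labels do not say whether the numbers pair the samples, and correlations over 2 to 5 pairs per comparison cannot settle it. In no comparison with at least 3 pairs did every pair correlate above 0.1 (-0.162 to 0.196 for AE roots and stems at 11 days, 0.0157 to 0.429 for AE and control-AE roots at 11 days). With 2 pairs, every pair did at 24 h in control-AI root against stem (0.144 to 0.148) and in AI against control-AI roots (0.113 to 0.235) and stems (0.41). In no other comparison did every pair do so, and for AE roots over time the pairs had -0.274 and 0.177. The block changed no other count of the 150 by over 1.5 times, and could not be fitted for control-AE over time or for AI root against stem at 24 h, which share 1 number. Of the other values for whole comparisons, 242 kept within 1.5 times or their call. Of single transcripts, 87 values under an alternative lost their call and none reversed. In stems, the filter left 58 to 71 of the 150 for treatment tests, so most could not be tested there at this depth.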
